A study of Mus musculus with 13 samples.

Results

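In oligodendrocyte precursor cells (OPCs), 2495 H3K27me3 domains were listed at places where the neural stem cell (NSC) library had no H3K27me3 peak. A domain was a listed OPC H3K27me3 peak at least 1000 bp wide, and it was called gained if no listed NSC H3K27me3 peak overlapped it by 1 bp. The gained domains were 2495 of the 4401 OPC peaks of that width, which is 56.7%, and the whole OPC list held 29417 peaks. The other 1906 wide peaks overlapped an NSC peak and are called kept domains. Members were therefore chosen on the measured H3K27me3 of NSCs and OPCs, and those values are given as a description.

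H3K27me3 is laid down by EZH2 in Polycomb repressive complex 2 and marks genes held silent during development, whereas H3K4me3 marks promoters that are active or poised. Places with both marks are called bivalent in stem and progenitor cells. OLIG2 is a basic helix-loop-helix factor that binds E-box motifs (CANNTG) and is needed for OPCs to form.

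The study followed H3K4me3, H3K27me3 and the transcription factor OLIG2 by ChIP-Seq from NSCs through OPCs to newly formed oligodendrocytes (NFOs), with 1 library per cell type and target. NSCs were purchased cells from the cortex of CD-1 embryos (E14.5), according to the culture protocol, and were grown with EGF and FGF, although the strain field gives C57BL/6 for every sample. OPCs were immunopanned from C57BL/6 mouse brain at postnatal day 7 with an antibody to PDGFRα, and NFOs from the same age with an antibody to GalC after microglia and endothelial cells were depleted. Males and females were pooled for OPCs and NFOs, and no group carried a genetic modification or a treatment in its labels. Stage was thus tied to strain, age, culture and, as the peak names show, single-end reads for NSCs against paired-end reads for OPCs and NFOs, and these cannot be told apart.

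With 1 library per condition no test between stages was possible, and no p-value is given. In parentheses, shares carry exact Clopper-Pearson 95% intervals, which cover counting error only and treat each domain or gene as independent, although neighbouring domains are not. The lists do not state the sequencing depth, so a place without a listed peak is a place without a call, and the mark may have been present there below the detection limit. A peak list also sums over many cells, so 2 marks listed at 1 place may have come from different cells, and fewer marked cells cannot be told apart from less mark per cell.

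The gained domains with the highest fold enrichment at protein-coding genes show the range of base composition at which the mark was listed. Polycomb is known to favour CpG-rich DNA, so CpG dinucleotides are in capitals in the 150 bases with the most CpGs of each of 4 domains (GRCm38, plus strand). Rreb1 encodes a zinc finger factor acting downstream of Ras, and its window lay at chr13:37856905-37857054 in an intron. Pax6 encodes a paired-box factor of radial glia, and its window lay at chr2:105682604-105682753 over an exon. Cnn1 encodes the smooth muscle protein calponin, and its window lay at chr9:22100043-22100192, overlapping the exon at the start of the gene. Dnajc6 encodes auxilin, which uncoats clathrin vesicles in neurons, and its window lay at chr4:101508914-101509063 in an intron.
Rreb1: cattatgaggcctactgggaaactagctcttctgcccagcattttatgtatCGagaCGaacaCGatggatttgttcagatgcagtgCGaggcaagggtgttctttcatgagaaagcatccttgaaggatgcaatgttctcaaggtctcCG
Pax6: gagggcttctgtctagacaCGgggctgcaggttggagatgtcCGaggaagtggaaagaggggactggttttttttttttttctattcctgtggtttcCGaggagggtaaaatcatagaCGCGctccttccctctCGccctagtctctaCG
Cnn1: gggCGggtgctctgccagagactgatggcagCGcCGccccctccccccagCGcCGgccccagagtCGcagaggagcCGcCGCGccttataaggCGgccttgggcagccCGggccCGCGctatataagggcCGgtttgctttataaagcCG
Dnajc6: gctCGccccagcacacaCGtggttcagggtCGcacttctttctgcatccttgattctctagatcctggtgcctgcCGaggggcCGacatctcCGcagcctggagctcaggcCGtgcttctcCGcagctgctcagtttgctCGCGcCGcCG

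These windows held 5 CpGs at Rreb1, 7 at Pax6, 12 at Dnajc6 and 15 at Cnn1. The domains were chosen for their fold enrichment, which was therefore alike, with 13.6 at Rreb1, 13.3 at Pax6, 13.2 at Cnn1 and 13.1 at Dnajc6.

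OLIG2 peaks overlapped few gained domains, and strong ones among them are shown as 121 bases around the summit (GRCm38, plus strand), with every CANNTG in capitals. Those far from genes are named by the nearest protein-coding start. Coordinates are those of the windows. The OPC window at chr6:101473246-101473366 was intergenic. The domain there lay 95358 bp from the nearest protein-coding start, that of Pdzrn3, which encodes a ubiquitin ligase. The OPC window at chr17:17409686-17409806 lay in an intron of Lix1. The OPC window at chr19:41101619-41101739 lay in an intron of Tll2, and the nearest protein-coding start was that of Opalin, which encodes an oligodendrocyte membrane protein. The NFO window at chr3:52520725-52520845 lay in an intron of Gm30173. The domain there lay 252473 bp from the nearest protein-coding start, that of Foxo1, which encodes a forkhead factor. The NFO peak itself was narrower than this window, at chr3:52520779-52520851.
Pdzrn3, OPC: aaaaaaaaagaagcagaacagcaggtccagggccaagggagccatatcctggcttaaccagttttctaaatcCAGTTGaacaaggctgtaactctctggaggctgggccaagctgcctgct
Lix1, OPC: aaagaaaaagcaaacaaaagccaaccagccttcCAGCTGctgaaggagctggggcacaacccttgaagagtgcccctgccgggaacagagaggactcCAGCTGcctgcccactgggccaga
Opalin, OPC: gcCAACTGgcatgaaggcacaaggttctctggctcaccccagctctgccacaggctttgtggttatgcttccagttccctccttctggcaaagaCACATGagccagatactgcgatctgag
Foxo1, NFO: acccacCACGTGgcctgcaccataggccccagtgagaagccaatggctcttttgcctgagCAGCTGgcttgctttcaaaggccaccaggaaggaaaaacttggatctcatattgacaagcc

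At Pdzrn3 and Lix1 the summit lay inside the gained domain, whereas those near Opalin and Foxo1 lay 12 and 24 bp outside it and only the edge of the peak overlapped the domain. The window at Pdzrn3 held 1 CANNTG, and the other windows held 2 each. A match to these 6 letters is a description of the sequence and does not show where OLIG2 bound.

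The antibody field of the labels named the opposite mark for the 6 histone libraries, and the sample titles were used. With the titles, all 39 Hox genes had a kept H3K27me3 domain, and 10 of 10 housekeeping genes had H3K4me3 and 0 of 10 had H3K27me3 in each stage. Of 27 neural stem cell genes, 27 carried an H3K4me3 peak in NSCs, 27 in OPCs and 20 in NFOs, beside 64.3%, 60.8% and 43.6% of all protein-coding genes. Of 24 oligodendrocyte lineage genes, 17, 17 and 12 carried one in the same order. These counts therefore did not mark a stage. Among the regulators of this lineage, Sox10 had H3K4me3 fold enrichments of 3.604, 8.88 and 19.2 in the order NSCs, OPCs, NFOs, whereas Olig2 had 10.03, 8.69 and 4.90, Olig1 had 10.9, 8.40 and 5.19, and Myrf had 3.46 and 4.22 and no NFO peak. Mag, Mog and Mobp, which encode myelin proteins, had no H3K4me3 peak in any stage, NFOs included, and Mbp had none in NFOs. Of 20 microglial and endothelial genes, H3K4me3 was listed at 5 for NSCs, at 6 for OPCs and at 2 for NFOs, and Cx3cr1, Aif1, Itgam, Spi1, Tmem119, Pecam1 and Cdh5 had no H3K4me3 peak in any stage. Other members of that list did, since Flt1, a VEGF receptor, had 6.51, 6.05 and 9.15, Irf8, a factor of microglia, had 5.55 in NSCs and 3.25 in OPCs, and Csf1r, a receptor of microglia, had 3.79 in OPCs alone.

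Gained domains were mostly short. Their median width was 1554 bp, with quartiles of 1222 and 2232 bp and a maximum of 20979 bp, and together they covered 5011.68 kb. Kept domains had a median width of 2113 bp and covered 7163.71 kb. Fold enrichment over the control, as computed by the authors' peak caller, had a median of 3.93 in gained domains and ranged from 2.75 to 14.2, beside a median of 5.30 in kept domains. Width and fold enrichment of the OPC peak belong to the selection, so no test was made of these differences.

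Members close to the width limit were common. There were 178 gained domains that exceeded 1000 bp by at most 50 bp, and 259 narrower OPC peaks without an NSC peak that fell short of it by at most 50 bp. Just inside the limit, 3 peaks of 1000 bp had fold enrichments of 3.04, 3.20 and 3.76, and 3 peaks narrower by 1 bp had 3.33, 4.08 and 6.64. The limit thus cut through a continuous range of widths. Below it, 18759 of 25016 narrower OPC peaks also overlapped no NSC peak. The nearest NSC H3K27me3 peak lay a median of 14137 bp from a gained domain, with a range of 15 to 432058 bp. If domains within 1 kb of an NSC peak were left out, 2364 remained, 1819 remained at 5 kb and 1454 at 10 kb.

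Gained domains often lay in runs. When members less than 20 kb apart were joined, the 2495 domains formed 1511 loci, of which 1069 held a single member, 371 held 2 to 4, and 71 held 5 or more. Those 71 loci held 489 of the members, so neighbouring domains are not independent observations. The locus with the most members, 16, lay over Atxn7l1 and Cdhr3 and carried 53.0 kb of gained domains within 142 kb. Its span also held 3 kept domains and 4 NSC H3K27me3 peaks. A run of 9 members with 37.1 kb lay over Ripor2, and 8 of them had an NFO H3K27me3 peak. Another run of 11 members, at chr14:123176669-123239278, held 41.9 kb of gained domains and contained no protein-coding start. The nearest such start was that of Nalcn, a sodium leak channel.

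The Notch2 locus shows such a run over 1 gene, and it was chosen after its values were seen. Notch2, a receptor of the Notch pathway, held 14 gained domains with 40.6 kb in its 136.8 kb gene body and no NSC H3K27me3 peak. Of these 14, 13 were listed again in NFOs, and 12 formed a single locus of 53.1 kb at chr3:98014359-98067456. H3K4me3 at the Notch2 start had a fold enrichment of 9.13 over 2537 bp in NSCs and 6.17 over 981 bp in OPCs, and no NFO peak lay within 2 kb of it. Thus the H3K4me3 peak was narrower in the OPC library. The same held at 92.3% of protein-coding genes that had both peaks and no H3K27me3 in NSCs or OPCs.

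Across gene bodies, 732 of 21938 protein-coding genes held at least 1 gained domain, 126 held 3 or more and 59 held 5 or more. These counts were not made for kept domains and were not adjusted for gene length. Prdm16, which encodes a zinc finger factor of neural stem cells and brown fat, held 26 with 46.8 kb in total and also held 5 NSC H3K27me3 peaks elsewhere in its body. Tenm4, a teneurin adhesion protein, held 24 gained domains and 35 NSC peaks, and Frmd4b held 21 gained domains and 4 NSC peaks. Gucd1 held 19 gained domains with 54.2 kb and 4 NSC peaks, and 18 of the 19 had an NFO H3K27me3 peak. Auts2 held 15 gained domains, and its NSC peaks numbered 30. These genes were named after their values were seen, and their lengths ran from 167 kb for Gucd1 to 1106 kb for Auts2. Unlike Notch2, they held gained domains beside H3K27me3 peaks of NSCs in the same gene body.

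**Figure D1:**
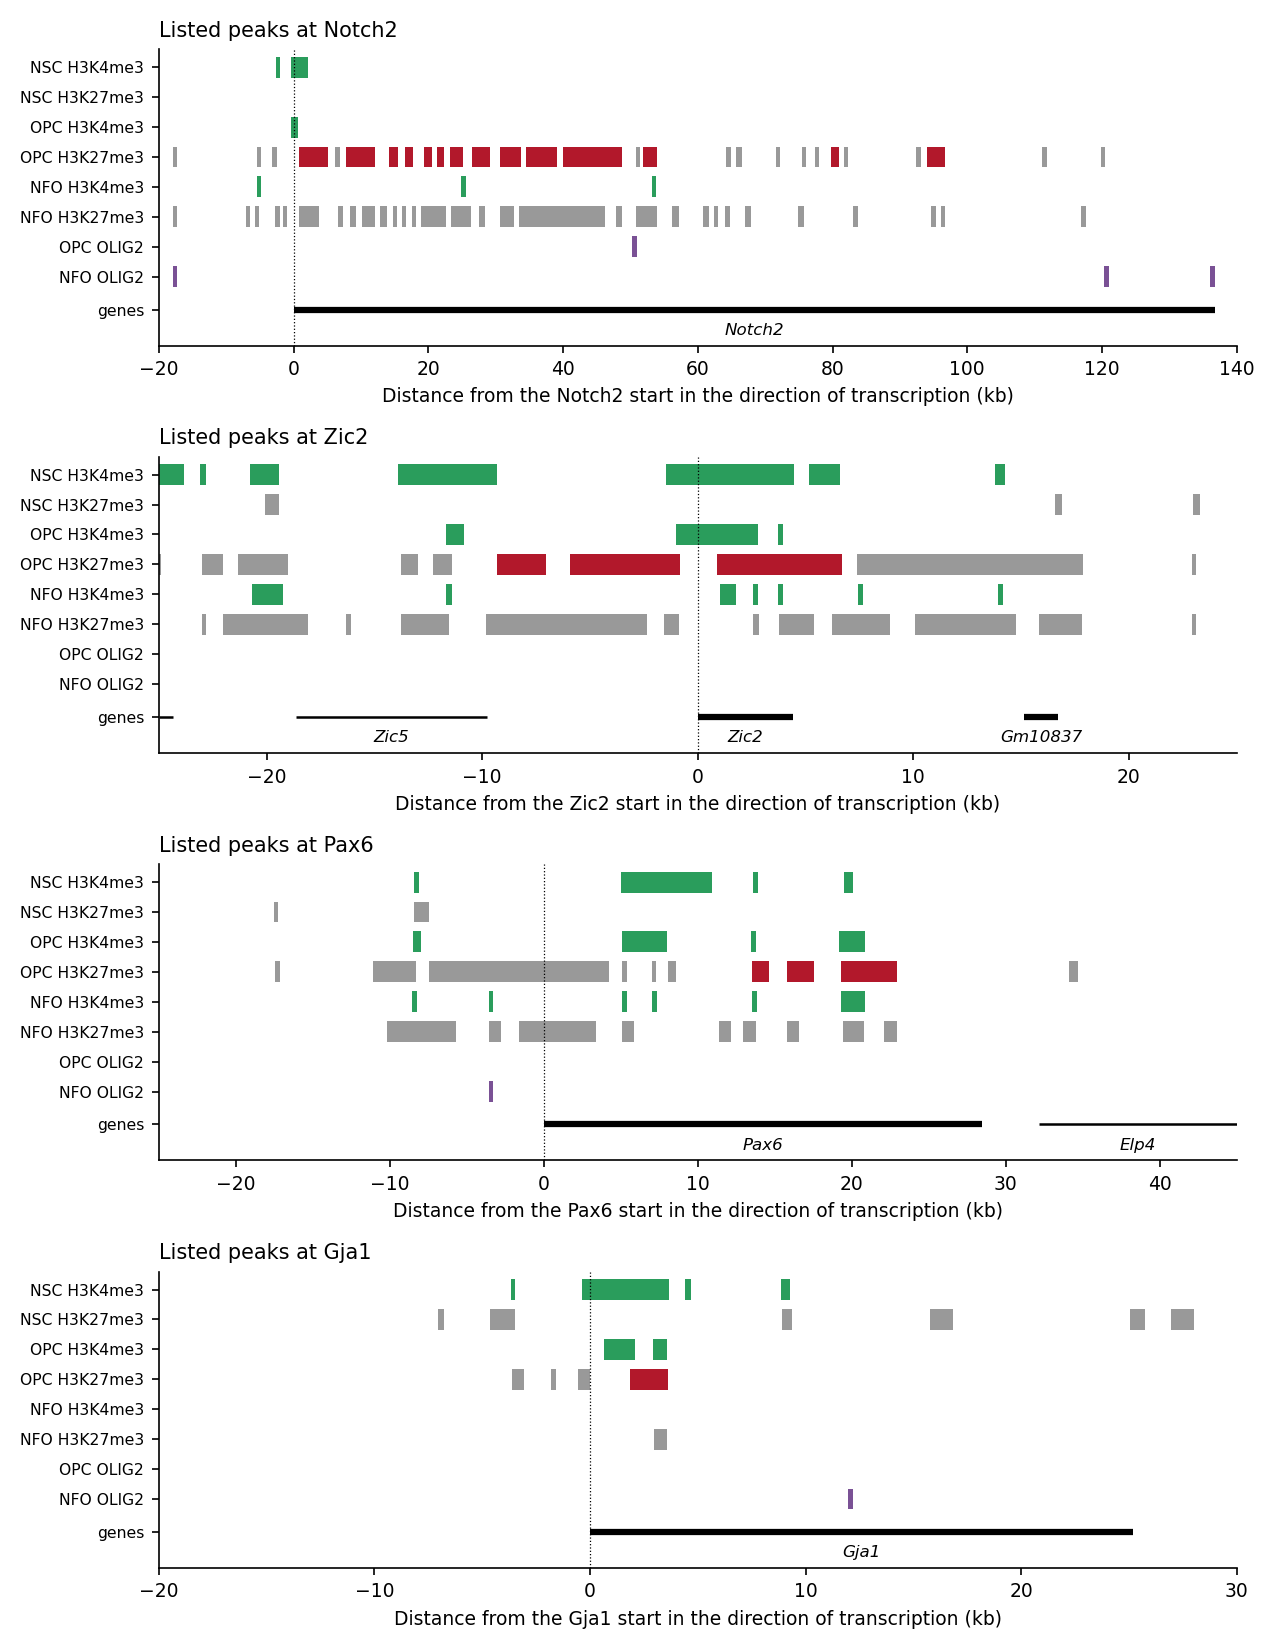
Listed peaks around Notch2, Zic2, Pax6 and Gja1 in NSCs, OPCs and NFOs, with distance from the start of the gene in kb on the x axis and 1 row per library (H3K4me3 green, H3K27me3 grey, gained OPC domains red, OLIG2 purple). Bars span each peak, very narrow peaks are drawn at a fixed minimum width, genes are thick on the strand of the named gene and thin on the other, and the red bars number 14 at Notch2, 3 at Zic2, 3 at Pax6 and 1 at Gja1.

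Starts of genes lay near fewer gained domains than kept domains. A start of a protein-coding or lncRNA transcript lay within 2 kb of 745 of 2495 gained domains (29.9%, 28.1 to 31.7), beside 38.5% of all wide OPC peaks and 49.8% of kept domains. A further 917 gained domains (36.8%) lay in gene bodies, and 833 (33.4%) were intergenic. For kept domains these shares were 21.8% and 28.4%. At protein-coding starts, 227 of 632 gained domains (35.9%, 32.2 to 39.8) covered the start, 200 lay upstream of it and 205 downstream. Among 841 kept domains at such starts, 46.6% covered the start. A gained domain was therefore more often beside a start than over it.

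The widest gained domains at protein-coding starts had moderate fold enrichment. The widest covered a start of Calr4, which encodes a calreticulin relative, at chr4:109225836-109237824. It was 11989 bp wide with a fold enrichment of 5.28, and NFO peaks covered 85.8% of it. At Calr4, no H3K4me3 peak was listed in NSCs, while OPCs had a short one of 220 bp. The domain at Ripor2 (chr13:24625880-24636927) was 11048 bp wide with a fold enrichment of 5.15. Sh2d3c, an adaptor of receptor tyrosine kinase signalling, had a domain of 8777 bp at chr2:32720002-32728778 with a fold enrichment of 6.73, and it overlapped H3K4me3 in all 3 stages. The domain at Efhd2, which encodes a calcium-binding protein, was 8023 bp wide, and at Cdhr3, a cadherin relative, 7813 bp. Others among the widest were at Nkain2 (6919 bp), Lipg (6685 bp), Cmtm7 (6536 bp) and Dhrs2 (6526 bp), with fold enrichments from 4.28 at Nkain2 to 5.63 at Dhrs2. These 9 domains overlapped an NFO H3K27me3 peak, over between 23.4% of the domain at Cmtm7 and 99.8% at Nkain2.

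The domains with the highest fold enrichment at protein-coding starts were narrower. After Rreb1, Pax6, Cnn1 and Dnajc6 came Stox2 with 12.4 and Slc35g2, a member of a solute carrier family, with 11.96. Egr3, an immediate early factor, had a value of 11.3, Prdm1, a zinc finger repressor, 11.2, and Nfix, a factor of the nuclear factor I family, 10.9. Widths in this group ran from 1014 bp at Slc35g2 to 3118 bp at Dnajc6, and the 9 named here overlapped an NFO H3K27me3 peak. High enrichment for H3K27me3 went together with H3K4me3 at some of these places. The Pax6 domain overlapped H3K4me3 peaks of all stages, with fold enrichments of 3.77, 14.4 and 7.38 in the order NSCs, OPCs, NFOs. At Dnajc6 these values were 6.29, 17.99 and 20.8, and at Prdm1 they were 12.5, 8.65 and 11.99. Some NFO peaks of both marks shared an edge, beginning at base 44457077 at Prdm1 and ending at base 105682670 at Pax6. The part of the control or of read mapping in such shared edges was not tested. Slc35g2 and Egr3 had no H3K4me3 peak over the domain in any stage. Over all gained domains, OPC H3K4me3 overlapped 52 of 190 with an H3K27me3 fold enrichment of 7 or above (27.4%, 21.2 to 34.3) and 57 of 652 with one below 3.5 (8.74%, 6.69 to 11.2).

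The widest gained domains without a start within 2 kb lay inside genes or between them. The domain of 14647 bp at chr2:109957473-109972119 lay in Lgr4, an R-spondin receptor, with a fold enrichment of 4.43. Domains of 12666 and 10604 bp belonged to the run near Nalcn, and a domain of 11091 bp lay in Frmd4b. The widest member of all, 20979 bp on chromosome 18, was covered by NFO peaks almost entirely. None of these 5 domains overlapped an H3K4me3 peak in any stage.

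Most gained domains were at places where NSCs had no H3K4me3 peak. An NSC H3K4me3 peak overlapped 437 of 2495 gained domains (17.5%, 16.04 to 19.1), beside 34.4% of all wide OPC peaks and 56.5% of kept domains. In OPCs themselves, H3K4me3 overlapped 289 gained domains (11.6%, 10.4 to 12.9), beside 19.9% of all wide OPC peaks. In NFOs, H3K4me3 overlapped 247 (9.90%, 8.76 to 11.1), beside 21.6%. The members were thus below the shares of all wide OPC peaks for H3K4me3 in each of the 3 stages. In 1924 gained domains no stage had an H3K4me3 peak. H3K4me3 was listed in NSCs alone in 182 domains, in NSCs and OPCs in 106, in NSCs and NFOs in 35, and in all 3 stages in 114. It was not listed in NSCs but was in OPCs in 69 domains, with an NFO peak in 33 of them and none in 36, and it was listed in NFOs alone in 65.

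The lower share of gained domains with NSC H3K4me3 was seen both near starts and away from them. With a start within 2 kb, NSC H3K4me3 overlapped 337 of 745 gained domains (45.2%, 41.6 to 48.9) and 716 of 949 kept domains (75.4%). Without one, it overlapped 100 of 1750 gained domains (5.71%, 4.67 to 6.91) and 37.6% of kept domains. OPC H3K4me3 at starts overlapped 28.5% of gained and 48.8% of kept domains, and NFO H3K4me3 16.1% and 49.7%.

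**Figure D2:**
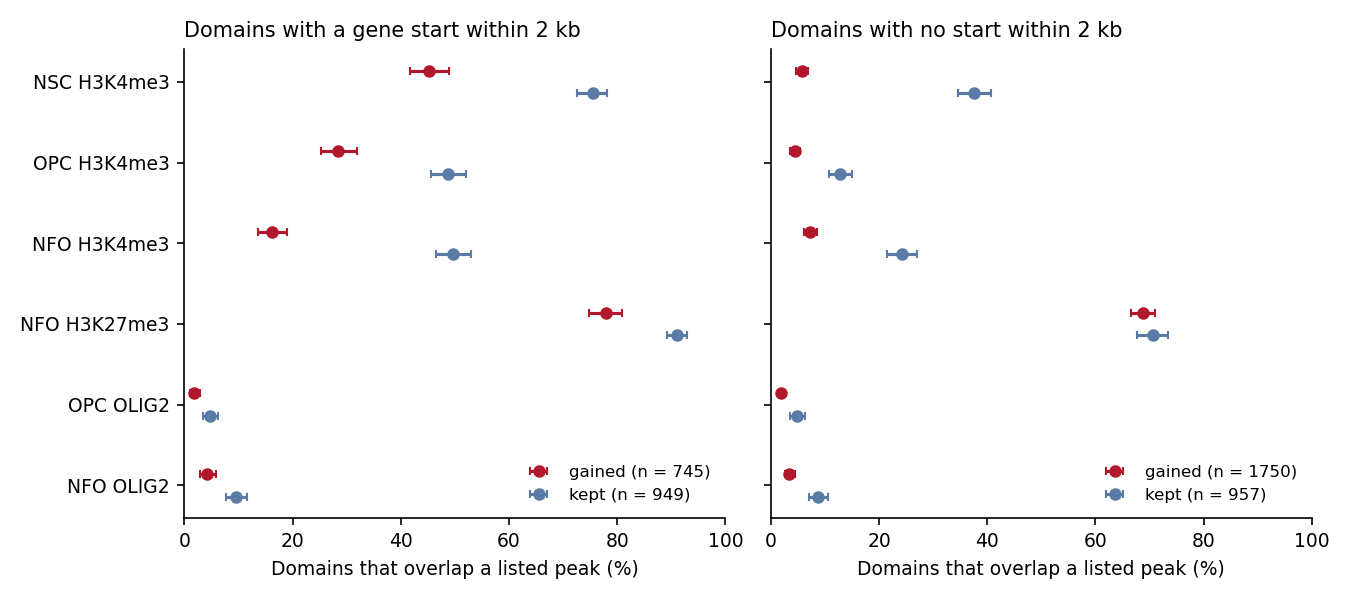
Share of gained and kept domains in percent (x axis) that overlap a listed peak of each library named on the y axis, with a start within 2 kb and without one in separate panels and exact 95% intervals as error bars. Near starts, NSC H3K4me3 reached 45.2% of gained and 75.4% of kept domains, whereas NFO H3K27me3 reached 78.0% and 91.1%.

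The widest gained domains that overlapped an NSC H3K4me3 peak at a protein-coding start included developmental regulators. Zic2, a zinc finger factor of forebrain patterning, had a domain of 5793 bp at chr14:122476312-122482104 with a fold enrichment of 7.53. The strongest H3K4me3 peak over it reached 15.4 for NSCs, 8.11 for OPCs and 9.10 for NFOs. Dlx2, a homeobox factor of interneuron progenitors, had a domain of 5832 bp, and H3K4me3 values of 6.24, 4.79 and 3.46. An NSC H3K27me3 peak began 274 bp from the Dlx2 domain, so that its membership rests on a short gap. Grin2b, a subunit of the NMDA receptor, had a domain of 6436 bp that lay 140138 bp from the nearest NSC H3K27me3 peak, with H3K4me3 values of 7.20, 4.75 and 3.67. Pitx3, a homeobox factor of dopamine neurons and lens, had a domain of 5774 bp and H3K4me3 values of 7.03, 5.16 and 6.22. In these 4 genes H3K4me3 was listed in all 3 stages, with the highest fold enrichment in NSCs. Genes with no H3K27me3 in NSCs or OPCs and H3K4me3 in both also had a higher median in NSCs, 8.86 against 6.66. The domain at Nkain2 overlapped an NSC H3K4me3 peak of 8.85 and no OPC H3K4me3 peak, but at the starts of the gene OPC and NFO peaks of 5.43 and 3.39 were listed.

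At the level of genes, 742 of 35312 annotated genes (2.10%) had a gained domain within 2 kb of a start, and 549 of them were protein-coding. Of the 742, 191 also had an NSC H3K27me3 peak within 2 kb of a start, which the domain did not touch. The remaining 551 genes (1.56% of all genes), 391 of them protein-coding, had no NSC H3K27me3 peak near any start and are called newly marked. Of the 391 newly marked protein-coding genes, 318 (81.3%, 77.1 to 85.1) had an NSC H3K4me3 peak within 2 kb of a start, beside 64.3% of all protein-coding genes. OPC H3K4me3 was listed at 279 of them (71.4%) and NFO H3K4me3 at 158 (40.4%), beside 60.8% and 43.6% of all protein-coding genes. NFO H3K27me3 was listed at 314 (80.3%, 76.0 to 84.1). With lncRNA genes counted as well, NSC H3K4me3 was listed at 72.1% (68.1 to 75.8) of newly marked genes. It was listed at 82.8% of genes with a kept domain and 49.0% of all genes. New H3K27me3 at starts therefore mostly lay at genes with H3K4me3 in NSCs, as kept domains did, although most gained domains lay elsewhere.

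H3K4me3 at newly marked genes was in most cases still listed in OPCs. Of the 318 newly marked genes with NSC H3K4me3, 264 (83.0%, 78.4 to 87.0) had it in OPCs, compared with 78.3% of 631 genes with a kept domain and 94.9% of 10025 genes without H3K27me3 in NSCs and OPCs. In NFOs, H3K4me3 was listed at 47.2% (41.6 to 52.8) of newly marked genes, 62.1% of genes with a kept domain and 67.3% of genes without the mark. Where both stages had a peak, the OPC peak was narrower than the NSC peak at 239 of 264 newly marked genes. The ratio of OPC to NSC width had a median of 0.546 there, 0.588 at genes with a kept domain and 0.647 at genes without H3K27me3. Narrower H3K4me3 peaks in OPCs were thus general, since 92.3% of genes without H3K27me3 also had them. Median width at the 264 genes was 2305 bp in NSCs and 1149.5 bp in OPCs. Over all listed H3K4me3 peaks, near starts or not, median widths were 553, 987 and 255.5 bp from NSCs to NFOs, and the part of such differences between the lists was not tested.

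At 54 newly marked protein-coding genes, H3K4me3 was listed within 2 kb of a start in NSCs and not in OPCs. Each mark was counted near any start of the gene, so the 2 marks need not have lain at the same place. Of the 54 genes, 47 had H3K27me3 in NFOs and 2 had H3K4me3 there. Their names are given after their values were seen. The highest NSC H3K4me3 was at Acbd7, with a fold enrichment of 9.68 over 2635 bp. Ppic, a cyclophilin, had 6.77, Megf6, with several EGF-like repeats, had 6.74, Llgl2, a cell polarity protein, had 6.67, and Adora2a, an adenosine receptor, had 5.72. Signalling and lineage genes among the 54 included Nodal, Wnt3 and Dhh, which encode secreted morphogens, and Phox2a and Mesp1, which encode factors of autonomic neurons and early mesoderm. Col1a1, a collagen chain, and Cnn1 were also among them. The NSC H3K4me3 peaks at these genes were weaker, with fold enrichments of 4.35 at Nodal, 4.30 at Mesp1, 4.01 at Wnt3, 3.65 at Col1a1, 3.61 at Phox2a, 3.51 at Cnn1 and 3.15 at Dhh. Those at Nodal, Dhh, Phox2a and Cnn1 were also short, with 382, 396, 250 and 248 bp, and that at Dhh fell below the study's filter of 3.5. At Mesp1 the gained H3K27me3 domain fell below that filter, with 3.17, and no NFO H3K27me3 peak was listed. The gained domains at Phox2a, Wnt3 and Col1a1 overlapped no NSC H3K4me3 peak, whereas those at Mesp1, Dhh and Cnn1 did.

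Of 15 gene lists, 13 held at least 1 gene with a gained domain, without a test. In most lists 1 gene alone is a share above the 2.50% of all protein-coding genes, so this count sets no list apart. The 13 included genes of microglia and endothelium (2 of 20), of astrocytes (1 of 24) and of Polycomb complexes (1 of 22). Of 36 forebrain patterning factors, 9 had a gained domain (Dlx2, Emx2, Lhx2, Pax6 and Zic1 to Zic5) and 3 were newly marked (Pax6, Zic2 and Zic5). In that list 30 genes had an NSC H3K27me3 peak at a start and 25 had a kept domain. Of 44 neuronal lineage factors, 8 had a gained domain and 4 were newly marked, namely Ebf1, Insm1, Neurod6 and Phox2a. In this list 37 genes had NSC H3K27me3. Neurod6, a factor of cortical projection neurons, had no H3K4me3 peak in any stage, whereas Ebf1, a factor of early neuronal differentiation, had H3K4me3 values of 11.5, 6.87 and 9.80 in that order of stages. Of 39 Hox genes none had a gained domain, and 39 had a kept one.

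Pax6 was the single gene of the 27 neural stem cell and radial glia genes with a gained domain. Its 3 gained domains lay downstream of the upstream starts, between 13.5 and 23.0 kb from the outermost one. A wider OPC domain over the upstream starts overlapped an NSC H3K27me3 peak and was therefore a kept domain. Beside the fold enrichment of 13.3 in the nearest one, the other members had 3.35 and 5.91. Around the Pax6 starts, H3K4me3 reached 11.3, 14.4 and 12.5 in NSCs, OPCs and NFOs. Within 2 kb of a start, 4 of the 27 genes had an H3K27me3 peak of any width in NSCs, 12 in OPCs and 8 in NFOs, beside 15.1%, 16.4% and 9.56% of all protein-coding genes. The NSC count was thus close to the share of all genes, and the OPC and NFO counts were above it.

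Signalling ligands gave 7 genes of 43 with a gained domain and 4 that were newly marked. The newly marked ligands were Wnt3, Wnt9a, Fgf17 and Dhh, and the others were Wnt6, Wnt11 and Fgf9. Wnt9a had H3K4me3 of 5.58 in NSCs and 4.07 in OPCs and none in NFOs, together with H3K27me3 near its starts of 6.64 in OPCs and 3.71 in NFOs. Of 46 mesoderm and endoderm factors, 5 had a gained domain (Sox18, T, Mesp1, Tbx5 and Runx1), and 37 had a kept one. Of the 5, 3 were newly marked, and T and Runx1 had NSC H3K27me3 near a start. Of 28 mesenchymal and matrix genes, 3 had a gained domain (Col1a1, Snai1 and Snai2), and all but Snai2 were newly marked. Snai1, a repressor of epithelial genes, had its domain at chr2:167534395-167536909 with a fold enrichment of 7.35 and no H3K4me3 within 2 kb of its start in any stage. Of 16 fetal growth genes, 3 had a gained domain (Igf2bp2, Igf2 and Dlk1), and Igf2bp2 alone was newly marked.

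Among genes of other brain cells, 1 of 24 astrocyte genes had a gained domain, a count close to the 2.50% of all protein-coding genes for so short a list. This was Gja1, which encodes connexin 43, with a fold enrichment of 10.6 over 1769 bp at chr10:56379181-56380949. H3K4me3 at Gja1 was 9.20 over 4039 bp in NSCs and 4.03 over 1457 bp in OPCs, and it was not listed in NFOs, where H3K27me3 was 3.35. NSC H3K27me3 peaks lay further from the Gja1 domain, the nearest at 5278 bp. Of 24 neuronal function genes, 2 had a gained domain, Rbfox3 and Sst, and Sst alone was newly marked. Of 20 microglial and endothelial genes, also 2 had one, Kdr and Sox18, which are endothelial. The domain at Kdr, the VEGF receptor, had a fold enrichment of 8.53, and H3K4me3 at its start stood at 7.56, 5.35 and 5.06 from NSCs to NFOs. The part of other cells in these values was not tested.

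Of 24 oligodendrocyte lineage genes, 2 had a gained domain, and both encode transcription factors. Nkx6-2, a homeobox factor of oligodendrocytes, also had a kept domain and NSC H3K27me3, whereas Tcf7l2, a Wnt effector of differentiating oligodendrocytes, was newly marked. The Tcf7l2 domain, 3654 bp at chr19:55892740-55896393, had a fold enrichment of 6.16, and H3K4me3 peaks near its starts reached 16.8, 11.4 and 16.97 from NSCs to NFOs. Of 7 CDK inhibitor genes, Cdkn2b alone had a gained domain. Cdkn2b encodes the cell cycle inhibitor p15, and its domain at chr4:89307667-89310374 had a fold enrichment of 6.28 and was covered over 99.7% by NFO peaks. Its H3K4me3 values from NSCs to NFOs were 11.7, 4.34 and 5.14. Of 10 housekeeping genes none had a gained domain, which at 2.50% of all protein-coding genes says little about so short a list.

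**Figure D3:**
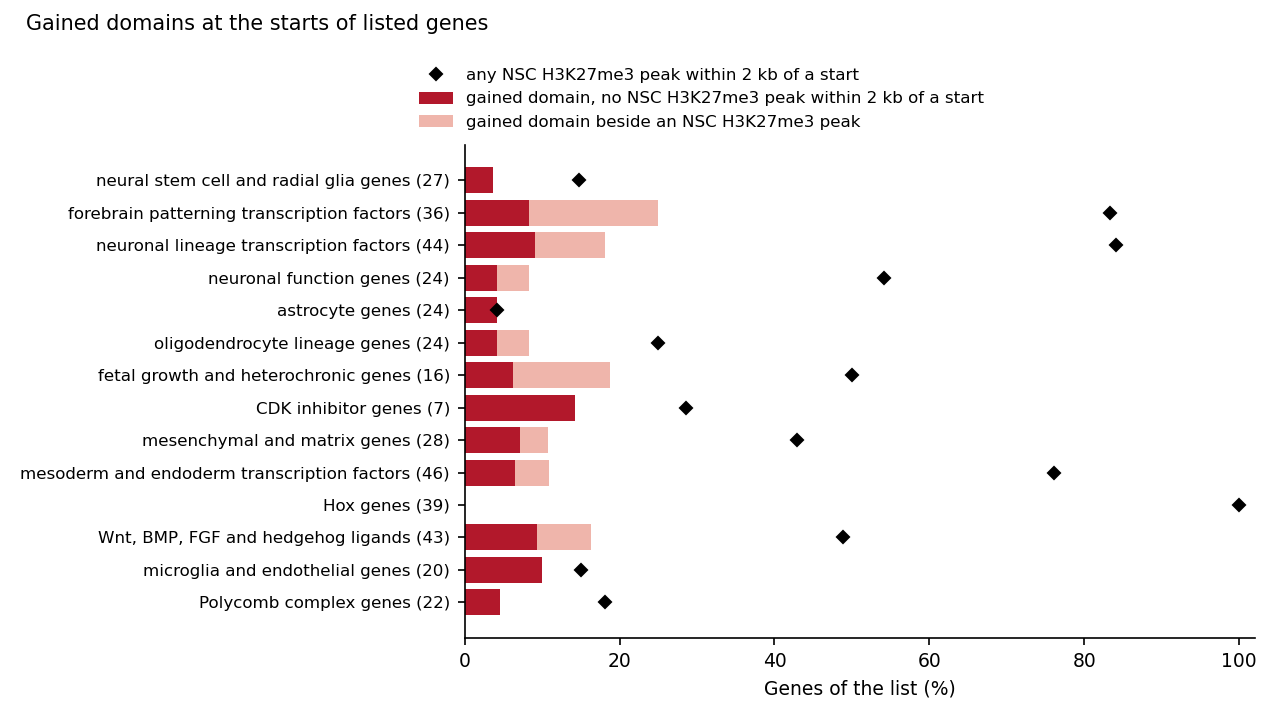
Percent of the genes of each list (x axis, number of genes in brackets) with a gained domain within 2 kb of a start, dark where newly marked and light where an NSC H3K27me3 peak also lay there, and diamonds for genes with any NSC H3K27me3 peak within 2 kb of a start. Forebrain patterning factors reached 25% and neuronal lineage factors 18.2%, beside 2.50% of all protein-coding genes. An OPC H3K27me3 peak of any width lay at 33 of 36 forebrain and 40 of 44 neuronal factors, beside 16.4% of protein-coding genes. The Hox genes had no bar and a diamond at 100%.

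Most gained domains were listed again in NFOs. An NFO H3K27me3 peak overlapped 1786 of 2495 gained domains (71.6%, 69.8 to 73.3), beside 75.6% of all wide OPC peaks and 80.8% of kept domains. It overlapped at least 50% of the domain in 1031 of them (41.3%, 39.4 to 43.3), and the median coverage was 37.8% in gained and 62.6% in kept domains. NFO fold enrichment at the 1786 domains had a median of 4.13. The NFO peak was itself at least 1000 bp wide at 1142 gained domains (45.8%). At 46 of the 1786 domains the NFO peak also overlapped an NSC H3K27me3 peak beside the domain.

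The share listed again was higher for wider and for more enriched OPC domains. Of gained domains from 1000 to under 2000 bp, 1056 of 1714 (61.6%, 59.3 to 63.9) had an NFO peak, close to the 61.9% of 889 kept domains of that width. At 2000 bp and over, 730 of 781 gained domains (93.5%, 91.5 to 95.1) and 97.4% of 1017 kept domains had one. Gained domains with a fold enrichment below 3.5 had an NFO peak in 371 of 652 cases (56.9%), and those at 7 or above in 172 of 190 (90.5%, 85.4 to 94.3). In the 3 classes between, divided at 4 and 5, the shares were 71.6%, 76.2% and 79.8%. The same 5 classes of kept domains gave 40%, 75.6%, 78.2%, 85.7% and 95.6%. Within a class of width, gained and kept domains were thus nearer to each other than the totals were. The NFO list held 12688 H3K27me3 peaks against 29417 in OPCs; the effect of that difference on the shares was not tested.

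**Figure D4:**
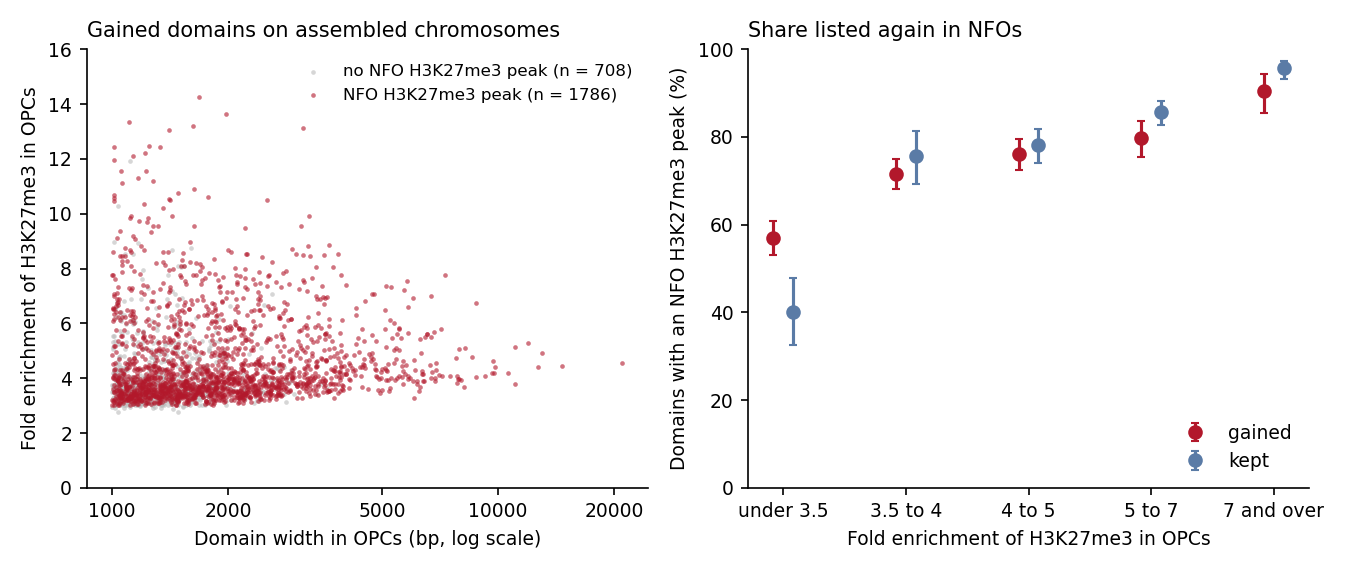
Left, width in bp (x axis, log scale) against OPC H3K27me3 fold enrichment (y axis) of each gained domain on assembled chromosomes, coloured by whether an NFO H3K27me3 peak overlaps it (1786) or not (708). Right, percent of gained and kept domains with an NFO peak by class of fold enrichment with exact 95% intervals, from 56.9% to 90.5% for gained domains.

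The share was also higher near starts and with earlier H3K4me3. Gained domains with a start within 2 kb had an NFO peak in 78.0% (74.8 to 80.9) and those without one in 68.9% (66.6 to 71.0). Domains with NSC H3K4me3 had an NFO peak in 355 of 437 cases (81.2%, 77.3 to 84.8), and those without it in 1431 of 2058 (69.5%, 67.5 to 71.5). Members with NSC H3K4me3 were also wider, with a median of 1802 bp against 1530 bp, so width moved with this difference. Seen from NFOs, 2029 of 3445 H3K27me3 peaks of at least 1000 bp overlapped no NSC peak. Of these, 1077 (53.1%) overlapped a gained OPC domain, and 1685 (83.0%) overlapped an OPC H3K27me3 peak of any width.

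OLIG2 peaks were rare in gained domains. In OPCs an OLIG2 peak overlapped 46 of 2495 gained domains (1.84%, 1.35 to 2.45), beside 3.09% of all wide OPC peaks and 4.72% of kept domains. In NFOs it overlapped 91 (3.65%, 2.95 to 4.46), beside 6.00% and 9.08%. Either stage gave 124 domains (4.97%), and 13 had an OLIG2 peak in both. Per length the difference from kept domains was smaller. OPC OLIG2 peaks numbered 0.938 per 100 kb of gained domain (0.689 to 1.25), 1.27 per 100 kb of kept domain (1.02 to 1.56) and 0.271 per 100 kb of the assembled chromosomes. For NFOs the values were 1.90 (1.53 to 2.32), 2.64 (2.28 to 3.04) and 0.620. The density in gained domains was thus above that of the chromosomes as a whole in both stages. Against kept domains it differed by position. With a start within 2 kb, OPC OLIG2 peaks numbered 0.851 per 100 kb of gained and 0.977 per 100 kb of kept domain, and NFO peaks 2.16 and 2.11. Without one, the densities were lower in gained domains, with 0.976 (0.676 to 1.36) against 1.80 (1.32 to 2.40) for OPCs and 1.78 (1.36 to 2.28) against 3.598 (2.90 to 4.41) for NFOs.

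Gained domains with NSC H3K4me3 held an OLIG2 peak in OPCs or NFOs in 45 of 437 cases (10.3%, 7.61 to 13.5), and those without it in 79 of 2058 (3.84%, 3.05 to 4.76). Near a start the share was 39 of 745 (5.23%), and away from starts it was 85 of 1750 (4.86%).

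The strongest OLIG2 peak that overlapped a gained domain, the intergenic one near Pdzrn3 shown above, had a fold enrichment of 39.7 in OPCs and 57.9 in NFOs. It lay at the edge of a domain of 1818 bp at chr6:101473255-101475072, of which NFO H3K27me3 covered 11.3%. In OPCs the next peaks were at Lix1 with 37.9, in the Tll2 intron near Opalin with 37.8, at Ctse with 34.3 and near Arhgap5 with 30.3. The domain near Opalin had no NFO H3K27me3 peak, whereas NFO peaks covered 97.3% of the domain at Lix1. Ctse, which encodes cathepsin E, had an OLIG2 peak of 30.6 in NFOs also, in a domain of 2453 bp that overlapped an NSC H3K4me3 peak of 10.1. In NFOs the peak near Foxo1 had 47.8, against 10.1 in OPCs, and that at Icam5, a neuronal adhesion protein, had 24.4 and no OPC peak.

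CANNTG was about as frequent at the summits of OLIG2 peaks in gained domains as elsewhere. CAGCTG was above its share at the domain centres, past the interval, for OPC peaks alone and on 8 of 47 peaks. The summit lay inside the domain for 43 of 47 OPC peaks and 91 of 95 NFO peaks that overlapped one. In the 121 bases around the summit, with CANNTG reading the same on both strands, 23 of 47 OPC peaks in gained domains held CANNTG (48.9%, 34.1 to 63.9), beside 49.9% of all 7384 OPC peaks. For NFOs it was 47 of 95 (49.5%, 39.1 to 59.9), beside 47.6% of all 16911. Windows of 121 bases at the centres of gained domains held it in 1157 of 2494 cases (46.4%), a share within the intervals of both sets of peaks. The form CAGCTG, which is included in CANNTG, was found at 8 of 47 OPC peaks (17.0%, 7.65 to 30.8) and 10 of 95 NFO peaks (10.5%, 5.16 to 18.5) in gained domains. Its share was 8.57% of all OPC peaks, 5.88% of all NFO peaks and 5.37% of domain centres. For OPC peaks the interval included the share of all OPC peaks and lay above that of domain centres, on 8 peaks, and for NFO peaks it included both. In kept domains CAGCTG was found at 5 of 91 OPC peaks (5.49%, 1.81 to 12.4) and 15 of 189 NFO peaks (7.94%, 4.51 to 12.8).

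Gained domains held less CpG than kept domains, and no background over the genome was computed. The ratio of observed to expected CpG had a median of 0.236 in 2494 gained domains on assembled chromosomes and 0.307 in kept domains, with GC contents of 44.8% and 45.7%. At starts the medians were 0.314 and 0.385, and away from starts 0.217 and 0.244. A ratio above 0.6, as in CpG islands, was reached by 63 gained domains (2.53%) and 4.64% of kept domains. By position these shares were closer, with 6.98% (5.26 to 9.05) and 8.43% (6.74 to 10.4) at starts and 0.629% and 0.845% away from them. The window of 150 bases with the most CpGs held a median of 5 in gained and 8 in kept domains. In gained domains with a start within 2 kb, as all 4 printed ones were, the median was 7, so that the windows for Dnajc6 and Cnn1 were above it, that for Pax6 was at it and that for Rreb1 was below it. Earlier H3K4me3 went with CpG content, since gained domains with NSC H3K4me3 had a median ratio of 0.386 and those without it 0.221. Of the former, 53 of 437 (12.1%, 9.22 to 15.6) exceeded 0.6, and of the latter 10 of 2057 (0.486%, 0.233 to 0.892). Domains with and without an NFO H3K27me3 peak were closer, with medians of 0.245 and 0.221.

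**Figure D5:**
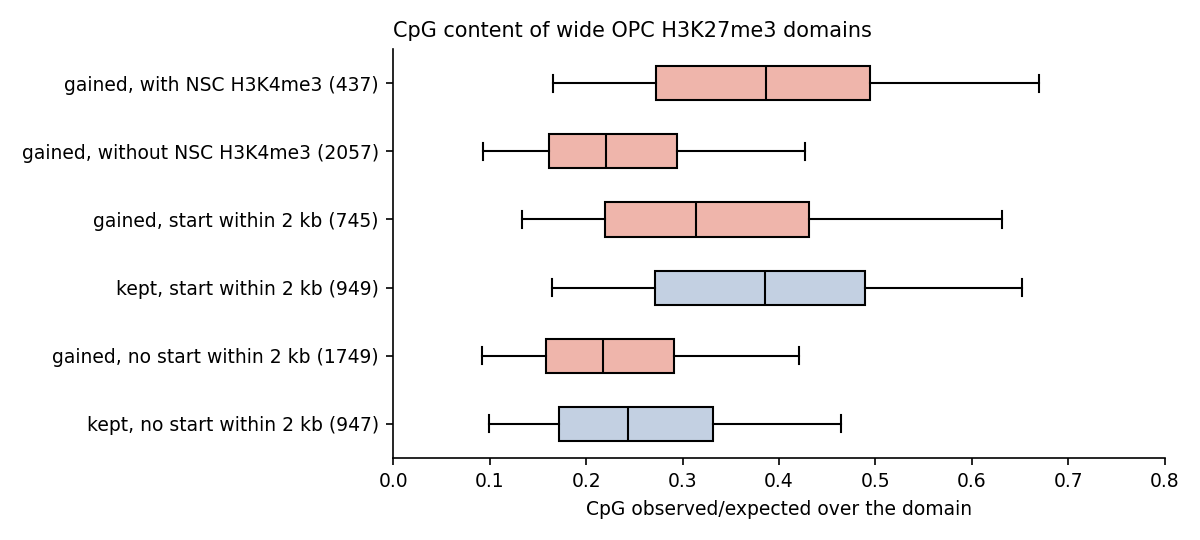
Observed over expected CpG (x axis, ratio) of gained and kept domains by position and, for gained domains, by NSC H3K4me3, with the number of domains in brackets. Boxes show the quartiles and median, whiskers the 5th and 95th percentiles, and the medians run from 0.217 for gained domains away from starts to 0.386 for those with NSC H3K4me3.

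Chromosome X held 48 gained domains (1.92%) and 58 kept domains (3.04%). The sexes of the NSC donors are not given in the labels, the NSC list held 3617 H3K27me3 peaks on X against 1611 in OPCs, and Xist, the RNA of X inactivation, had an H3K4me3 peak in all 3 stages. Without chromosome X the share of gained domains with NSC H3K4me3 was 17.5% and that with NFO H3K27me3 was 71.6%, so these values did not rest on X.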

How the data were processed

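ChIP-Seq lists of 8 libraries were used, those of both histone marks at 3 stages and of OLIG2 at 2, grouped by their titles. The authors mapped reads to mm10 with Bowtie2, kept unique reads, called broad histone peaks in each library with MACS2 and OLIG2 peaks with SPP, and removed blacklisted regions. The deposited lists give each peak's fold enrichment, a ratio to the control. The FDR and, for histone marks, the p-value computed by the authors are listed as −log10. The study's filter (FDR below 0.05 and fold enrichment above 3.5, or 5 for OLIG2) had not been applied to the lists, and all listed peaks were used, with the filter as an alternative. The 3 input and 2 RIP-Seq libraries were not used, and OLIG2 peaks of NSCs are not analysed here. Depth is unknown.

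Overlaps of at least 1 bp were counted, on GENCODE M21 genes (35312) and all their transcript starts, within 2 kb. Members, gene lists and comparisons were chosen with earlier results of these data known. Named were the 10 widest and the 10 most enriched domains at protein-coding starts, the 10 widest of those with NSC H3K4me3, the 5 strongest OLIG2 peaks per stage, the 5 widest domains without a start, list genes with a gained domain, and Xist; some of these are not reported here. Overlap counting was tested on simulated peaks. Alternatives changed the width, the distance to NSC peaks, the joining of peaks, the overlap, the filters and the start rule. Intervals came from SciPy 1.17.1, sequences from pysam 0.24.0 and figures from Matplotlib 3.10.9, under Python 3.11.15 with pandas 2.3.3 and NumPy 2.4.6.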

Additional observations from a re-analysis of the deposited data

How the results depend on the processing

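Of 72 alternatives, 40 moved a value by less than its interval, or a count by less than 1.5 times, and 32 moved it further. Leaving out domains within 1 kb or 5 kb of an NSC H3K27me3 peak moved none of the shares compared past its interval. At 10 kb, a distance chosen after seeing the data, 1454 domains were left, the share with NFO H3K4me3 was 11.3% in place of 9.90% and that in gene bodies was 39.5% in place of 36.8%, both past the interval, while those with NSC H3K4me3 (17.5%) and NFO H3K27me3 (72.6%) stayed within it. With a minimum of 500 bp there were 7907 gained domains, of which 13.3% had NSC H3K4me3, 38.7% NFO H3K27me3, 7.83% OPC H3K4me3, 4.48% NFO OLIG2 and 23.1% a start within 2 kb, and 3.11% lay on chromosome X. With a minimum of 2000 bp there were 781, and the shares were 22.9%, 93.5% and 15.0% for the same 3 histone peaks, 3.07% for OPC OLIG2 and 4.99% for NFO OLIG2. With the study's filter in every histone list there were 2245, of which 1843 (82.1%) were also gained on listed peaks, and the shares were 67.3% for NFO H3K27me3, 13.3% for OPC H3K4me3, 5.35% for NFO OLIG2 and 33.0% for a start. Joining OPC peaks under 1 kb apart gave 67.7% for NFO H3K27me3, 13.2% for OPC H3K4me3 and 4.73% for NFO OLIG2. An overlap of 200 bp gave 14.55% for NSC H3K4me3, 65.7% for NFO H3K27me3 and 7.90% for OPC H3K4me3, and an overlap over 50% of the domain gave 5.21%, 41.3% and 1.68%. OLIG2 peaks within 1 kb reached 4.45% of domains in OPCs and 4.77% in NFOs. A start lay near 23.2% at a distance of 1 kb, 25.3% with protein-coding genes alone and 21.9% with 1 start per gene. The causes of these shifts were not tested. No paired analysis was possible because each condition has 1 library.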
